A study of Homo sapiens with 6 samples.

Results

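The 38 genes described here encode the core of the apoptosis machinery: the BCL2 family, the caspases, the inhibitor of apoptosis proteins and the death receptors with their adaptors. They were taken by gene symbol from an expression table of 17039 genes, and all 38 were in it. The table holds poly(A) RNA sequencing of 2 human breast cancer lines, with 3 libraries of each. MDA-MB-231 is an established triple-negative breast cancer line, and 231-BR is a variant of it that homes to the brain. The 231-BR cells were a gift from the National Cancer Institute, and the MDA-MB-231 cells were bought from ATCC. The 231-BR cells were kept in medium with 200 µg/mL of the antibiotic G418 and the MDA-MB-231 cells in the same serum-containing medium without it. Line, source of the stock and antibiotic therefore cannot be told apart. Libraries were grouped by their titles, since the cell line field of the labels counts up by 1 from replicate to replicate. The labels call the samples independent but do not say that they were separate cultures, so the p-values measure the spread between these libraries, which may be technical.

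Cells die by apoptosis along a pair of routes. In the mitochondrial route, BH3-only proteins sense damage and either block the BCL2-like survival proteins or activate BAX and BAK1, which open pores in the outer mitochondrial membrane. Cytochrome c then leaves the mitochondria and assembles with APAF1 into the apoptosome, which activates caspase-9. In the death receptor route, ligands such as FAS ligand and TRAIL bind receptors that recruit the adaptor FADD and the initiator caspases -8 and -10, and CFLAR competes for the same platform. Inhibitor of apoptosis proteins restrain caspases and death receptor signalling, and DIABLO, released from mitochondria, relieves that restraint.

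Values are FPKM, that is, sequenced fragments scaled to transcript length and to the library's mapped total, so that levels can be compared between genes per length. Read counts were not analysed here, depth is unknown, and no counting intervals can be given. Summed FPKM over all genes was 465020 to 472007 in the 231-BR libraries and 486937 to 496420 in the MDA-MB-231 libraries, and 11166 to 11178 and 10785 to 10806 genes respectively reached 1 FPKM. Of the markers of a mesenchymal-like triple-negative line, VIM (2553 against 2306 FPKM) and EGFR (91.2 against 33.3 FPKM) were high. CD44 (181.2 against 250.6 FPKM), KRT18 (272.7 against 351.8 FPKM) and KRT8 (176.3 against 237.4 FPKM) were high too, and lower in 231-BR. CDH1 (at most 0.03 FPKM in any library) and PGR (at most 0.07 FPKM) were near 0. ESR1 (0.927 against 0.79 FPKM) was low, while ERBB2 (9.88 against 4.95 FPKM) and EPCAM (8.70 against 5.06 FPKM) were present. Of 11 markers of blood, endothelial, brain, liver and smooth muscle cells, 9 stayed under 0.6 FPKM in every library, and PTPRC, CD3E, CDH5, GFAP, ALB and MYH11 were at most 0.07 FPKM. The sum over the 11 markers was 102.8 to 106.2 FPKM in 231-BR and 75.3 to 79.2 FPKM in MDA-MB-231, carried by CD68 (82.9 against 63.5 FPKM) and MBP (21.0 against 13.6 FPKM).

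BCL2A1, an inducible survival protein, was the apoptosis gene that differed most, near 0 in MDA-MB-231 and at 14.2 FPKM in 231-BR. FAS, CASP4, CASP1, CASP10 and the decoy receptor TNFRSF10C were also more than 2-fold higher in 231-BR, and the pore-former BAK1 was more than 2-fold lower. Each library was compared on the scale log2(FPKM + 0.1) with limma, and a gene was called at a Benjamini-Hochberg adjusted p under 0.05 over the 13465 genes whose mean reached 0.1 FPKM. Of the 38 genes, 35 passed that minimum and 31 were called, 12 higher and 19 lower in 231-BR. Among all genes tested 77.3% were called (44.4% higher and 32.9% lower), so being called was no distinction here. Of the 35 genes, 6 were called with a log2 fold change over 1, against 10.9% of all genes tested, and 1 with a log2 fold change under -1, against 4.34%. With a pseudocount of 1 in place of 0.1, the log2 fold changes of CASP1, CASP10 and TNFRSF10C came to 0.79, 0.61 and 0.88 and that of FAS to 1.03. The smallest p that an exact permutation test of 3 against 3 libraries allows is 0.1, so the calls rest on the spread pooled over genes.

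Most differences were small. For 22 of the 35 genes (62.9%) the absolute log2 fold change was under 0.5, and the same held for 61.4% of all genes tested. No 231-BR library fell within the range of the MDA-MB-231 libraries, or the reverse, for 30 of the 35 genes, against 78.4% of all genes (44.9% with 231-BR the higher). The median log2 fold change was -0.14 over the apoptosis genes and 0.08 over all genes. Among all called genes 57.4% were higher in 231-BR, a share that became 50.4% with median-of-ratios scaling and 45.6% with quantile normalization, while the share among the called apoptosis genes was 38.7%, 36.7% and 38.7%. In a test against an absolute log2 difference of 0.5, the shares were close, at 67.4% of all called genes and 63.6% of the called apoptosis genes. Quantile normalization moved the median of all genes from 0.08 to -0.06, so the direction of fold changes of that size depends on the scaling.

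**Figure D1:**
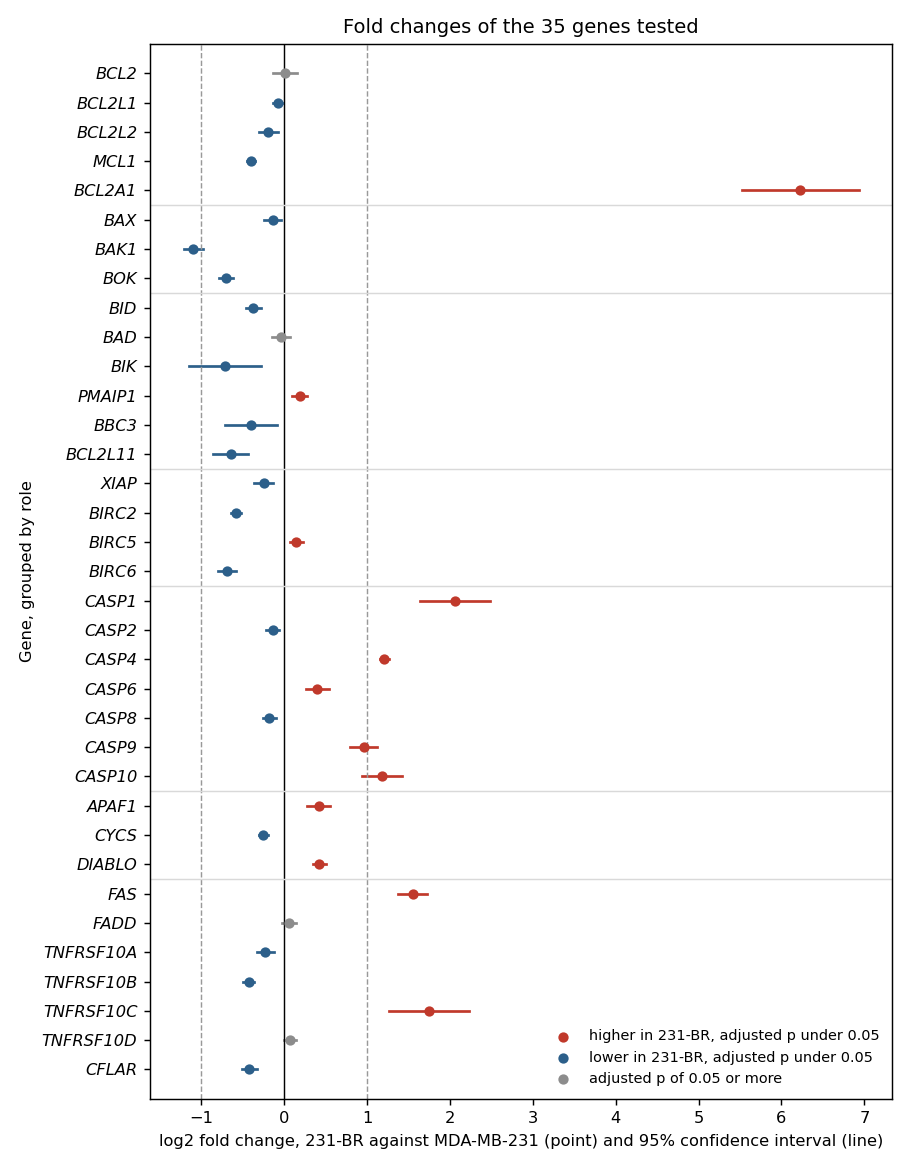
Log2 fold change of each apoptosis gene tested, 231-BR against MDA-MB-231, on the log2(FPKM + 0.1) scale with 95% confidence intervals from limma, grouped by role. BCL2A1 stands far to the higher side at 6.23 and BAK1 is the lowest at -1.10, while most genes lie within 0.5 of 0.

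BCL2L1 headed the order of the levels in both lines. In 231-BR, it stood at 167.3 ± 1.42 FPKM (mean ± SD, n = 3), followed by CASP4, MCL1, BIRC2, BAX, BIRC5, CYCS and DIABLO, and no neighbouring pair from BCL2L1 to DIABLO overlapped between libraries. In MDA-MB-231 the order was BCL2L1, MCL1, BIRC2, then BAX and CASP4, whose libraries overlapped, then CYCS and TNFRSF10B. The median gene stood at 10.2 FPKM in 231-BR and 12.7 FPKM in MDA-MB-231. Replicates were close, with a median SD of 0.0381 log2 units among the 231-BR libraries and 0.0447 among the MDA-MB-231 libraries. Summed over all 38 genes, FPKM was 1002 ± 2.05 and 1018 ± 5.38.

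**Figure D2:**
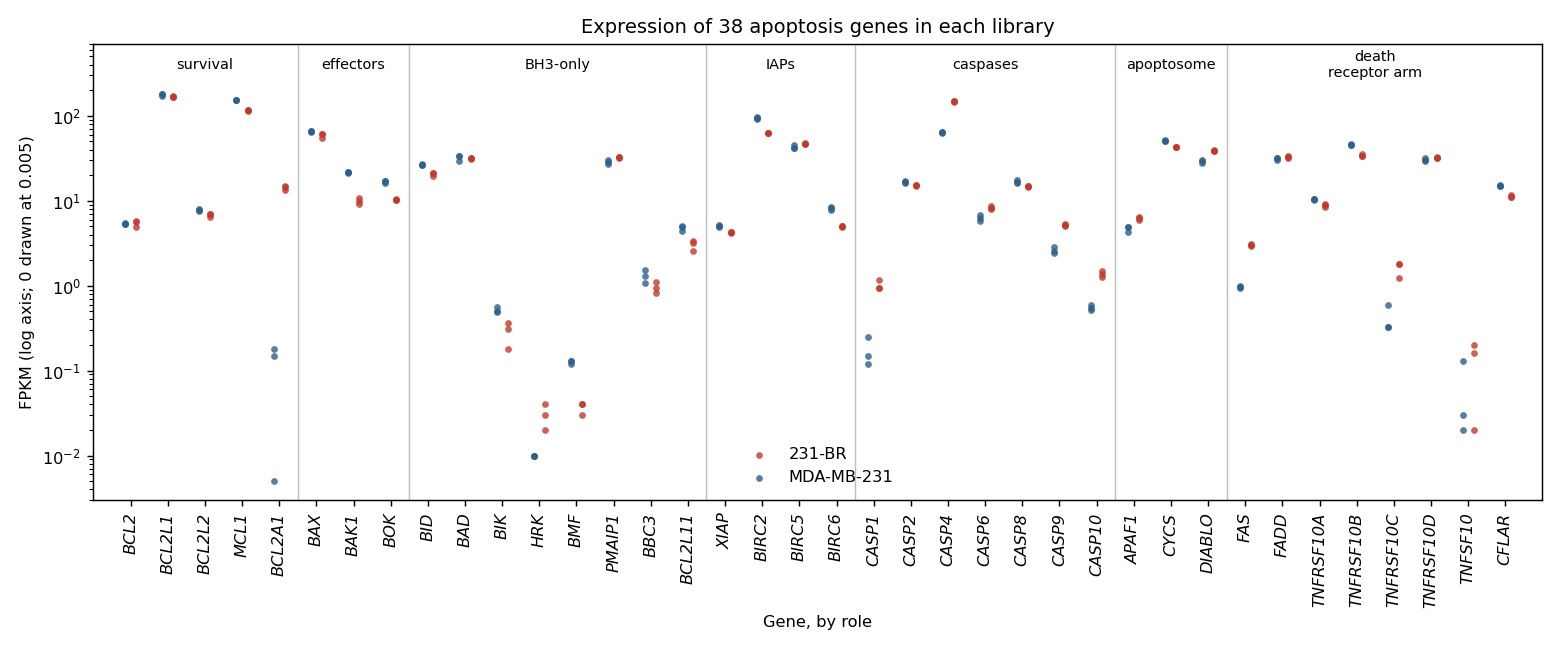
FPKM of each apoptosis gene in every library on a logarithmic axis, grouped by role, with 231-BR and MDA-MB-231 in different colours. Most pairs of points lie close together, and BCL2A1 is the widest gap, from at most 0.18 FPKM in MDA-MB-231 to at least 13.49 FPKM in 231-BR.

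Among the BCL2-like survival proteins, which hold BAX, BAK1 and the BH3-only proteins in check, 1 of 5 rose, 3 fell and 1 was not called. BCL2A1 read 14.31, 14.87 and 13.49 FPKM in the 231-BR libraries and 0, 0.15 and 0.18 FPKM in the MDA-MB-231 libraries. Every 231-BR library lay far above every MDA-MB-231 library. The log2 fold change was 6.23 (SE 0.315, adjusted p = 4.2e-08), which placed BCL2A1 at rank 23 among the increases of all 13465 genes. With 1 MDA-MB-231 library at 0, the size depends on the pseudocount, and the log2 fold change was 3.78 with a pseudocount of 1 and 7.72 with 0.01.

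BCL2A1 lies on the minus strand of chromosome 15. The 250 bases before its start are shown because it had the largest difference. The sequence is from RefSeq (GRCh38.p14, chr15:79971197-79971446), 5′ to 3′ on the gene's strand, and capitals mark, in order, TTCNNNGAA (a STAT-type letter pattern), an interferon-response pattern (GAAA, any 2 bases, GAAA, here on the opposite strand) and TATAAA.

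BCL2A1: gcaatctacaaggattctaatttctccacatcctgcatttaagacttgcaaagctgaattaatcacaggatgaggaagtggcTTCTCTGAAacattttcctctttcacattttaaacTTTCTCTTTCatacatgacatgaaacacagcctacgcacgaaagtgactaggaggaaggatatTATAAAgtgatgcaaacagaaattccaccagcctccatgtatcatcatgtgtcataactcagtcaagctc

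Both strands were searched. TTCNNNGAA was in 6.57%, the interferon-response pattern in 3.02% and TATAAA in 10.7% of all 35116 promoters of that length, and GC content was 38.8% against a median of 58.0%. Promoters were available for 28 of the 38 genes, 51 in all. A pattern in any promoter of a gene counted for that gene, whereas the percentages are over single promoters. The interferon-response pattern was also found for TNFSF10 and TTCNNNGAA for CASP8. The NF-kB site was in 9.96% of all promoters and was found for BIRC6, BMF, CASP2, CFLAR and FAS. These are letter matches and not measured binding. Known NF-kB response genes are given here because BCL2A1 is one of the classical targets of that factor: 17 of 19 tested fell in 231-BR, 1 rose, and their median log2 fold change was -2.10. Their summed FPKM was 238.6 to 247.1 in 231-BR and 844.0 to 861.4 in MDA-MB-231, the opposite direction to BCL2A1. CXCL1 (3.48 against 105.2 FPKM), CXCL8 (4.60 against 65.5 FPKM) and IL6 (0.297 against 4.77 FPKM) fell most, and CXCL1, CXCL8, NFKBIA and ICAM1 in the list had been picked by the study from these libraries. Their part in the BCL2A1 result was not tested.

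The abundant survival genes moved little. BCL2L1, which encodes BCL-XL, read 168.64, 165.8 and 167.35 FPKM in 231-BR and 173.1, 178.98 and 178.59 FPKM in MDA-MB-231. All 231-BR libraries were below all MDA-MB-231 libraries, at a log2 fold change of -0.08 (SE 0.0223, adjusted p = 0.0075), which was -0.16 with median-of-ratios scaling and which quantile normalization turned to 0.005 (adjusted p = 0.84). MCL1, a short-lived survival protein, read 117.72, 115.97 and 115.24 FPKM in 231-BR and 154.98, 153.36 and 152.26 FPKM in MDA-MB-231. Its libraries did not overlap and it fell by 0.40 on the log2 scale (SE 0.0212, adjusted p = 5.8e-08). BCL2L2 (BCL-w) fell from 7.74 to 6.77 FPKM, a log2 fold change of -0.19 (adjusted p = 0.0049) that was -0.36 with quantile normalization. BCL2L2 shares sequence with the read-through gene BCL2L2-PABPN1, a gene chosen here after its values were seen. BCL2L2-PABPN1 stood at 4.01 ± 0.873 FPKM in 231-BR and 3.12 ± 1.08 FPKM in MDA-MB-231, a log2 fold change of 0.38. How reads were split between BCL2L2 and BCL2L2-PABPN1 is therefore uncertain.

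BCL2 itself was not called. It read 5.75, 5.61 and 4.88 FPKM in 231-BR and 5.44, 5.34 and 5.32 FPKM in MDA-MB-231. The groups overlapped, and the log2 fold change of 0.01 had a 95% confidence interval of -0.14 to 0.16 (adjusted p = 0.91). With quantile normalization it was called lower, at -0.20 (adjusted p = 0.019). The summed FPKM of the survival genes was 310.0 ± 2.97 in 231-BR and 343.6 ± 2.10 in MDA-MB-231, without overlap. Within that sum, BCL2L1 took 54.0% and 51.5%, MCL1 37.5% and 44.7%, and BCL2A1 4.59% and 0.0319%.

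All 3 pore-forming effectors fell in 231-BR. BAX, the most abundant, read 54.81, 61.3 and 61.61 FPKM in 231-BR and 63.65, 66.54 and 65.68 FPKM in MDA-MB-231. Its libraries did not overlap, but the log2 fold change was only -0.14 (SE 0.0435, adjusted p = 0.013), and the call was lost without the mean-variance trend (adjusted p = 0.058). Its log2 fold change was -0.09 without 231-BR replicate 1 and -0.23 with median-of-ratios scaling. BAK1, its partner at the mitochondrial membrane, read 9.97, 10.73 and 9.25 FPKM in 231-BR and 20.97, 21.69 and 21.62 FPKM in MDA-MB-231. Every 231-BR library lay well below every MDA-MB-231 library. The log2 fold change of BAK1 was -1.10 (SE 0.0518, 95% confidence interval -1.21 to -0.98, adjusted p = 2.6e-08). BOK, a related effector, fell from 16.8 ± 0.445 to 10.3 ± 0.221 FPKM, a log2 fold change of -0.70 (adjusted p = 6.8e-08).

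Since BAX and BAK1 moved unequally, their ratio differed. BAX stood at 5.96 ± 0.619 times BAK1 in 231-BR and at 3.05 ± 0.0180 times BAK1 in MDA-MB-231, with no overlap between libraries. The summed effectors were 79.5 ± 3.95 FPKM and 103.5 ± 2.27 FPKM, and the survival genes over the effectors came to 3.90 ± 0.236 and 3.32 ± 0.0535. The promoter of BAK1 (RefSeq, GRCh38.p14, chr6:33580277-33580526, minus strand) is shown as that of the only gene past a log2 fold change of -1, with GGGCGG (a GC box) on either strand in capitals.

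BAK1: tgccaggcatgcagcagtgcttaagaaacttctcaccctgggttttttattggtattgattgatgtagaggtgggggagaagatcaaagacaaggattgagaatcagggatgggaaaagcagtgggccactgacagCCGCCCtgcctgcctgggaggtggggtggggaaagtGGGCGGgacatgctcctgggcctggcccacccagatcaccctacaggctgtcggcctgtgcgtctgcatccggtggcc

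Its GC content of 58.0% equals the median of all promoters, and GGGCGG was in 42.6% of all promoters.

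BH3-only proteins start the mitochondrial route. Of the 8 genes, 6 passed the expression minimum: 1 rose, 4 fell and 1 was not called. BAD, which is controlled by survival factor kinases, was the most abundant over both lines and read 31.96, 31.53 and 30.86 FPKM in 231-BR and 29.61, 33.52 and 33.73 FPKM in MDA-MB-231. The groups overlapped, and the log2 fold change of -0.04 had a 95% confidence interval of -0.14 to 0.07 (adjusted p = 0.52). PMAIP1 (NOXA), which neutralizes MCL1, was the only BH3-only gene that rose, from 28.6 ± 1.64 to 32.5 ± 0.727 FPKM (log2 fold change 0.19, adjusted p = 0.0022, and 0.10 with median-of-ratios scaling).

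BID, the link from caspase-8 to the mitochondria, fell from 26.6 ± 0.398 to 20.5 ± 1.00 FPKM (log2 fold change -0.37, adjusted p = 9.6e-06). BCL2L11 (BIM), a broad antagonist of survival proteins, fell from 4.78 ± 0.324 to 3.03 ± 0.394 FPKM (log2 fold change -0.65, adjusted p = 0.00013). BIK was low in both lines, at 0.283 and 0.517 FPKM, and was called lower (log2 fold change -0.72, adjusted p = 0.0066), at -0.24 with a pseudocount of 1 and -1.13 with quantile normalization. BBC3 (PUMA), a p53 target, read 0.82, 1.09 and 0.95 FPKM in 231-BR and 1.08, 1.29 and 1.52 FPKM in MDA-MB-231. The groups overlapped, its log2 fold change was -0.40 (adjusted p = 0.025), and the call was lost without 231-BR replicate 1 or 3 or MDA-MB-231 replicate 2 or 3 (adjusted p = 0.095, 0.057, 0.057 and 0.097) and with no expression minimum (adjusted p = 0.053). It was -0.23 with a pseudocount of 1 and -0.82 with quantile normalization.

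HRK and BMF were below the minimum and were not tested. HRK lay at 0.02 to 0.04 FPKM in 231-BR and at 0.01 FPKM in each MDA-MB-231 library, and BMF at 0.03 to 0.04 FPKM and 0.12 to 0.13 FPKM. Known p53 targets went both ways beside these genes: 6 of 19 tested rose and 7 fell, with a median of 0.02. GDF15 (1.33 against 0.15 FPKM), TP53I3 and FDXR rose most and CDKN1A (9.95 against 37.9 FPKM, picked by the study from these libraries), DDB2 and PERP fell most among those that reached 1 FPKM. The list's summed FPKM was 150.4 to 152.2 in 231-BR and 183.0 to 183.6 in MDA-MB-231, and its part was not tested. PMAIP1, BBC3 and TNFRSF10B can also be induced through the integrated stress response. The 18 genes listed for it include endoplasmic reticulum chaperone genes such as HSPA5 (166.1 against 386.1 FPKM). Of the 18, 15 fell and 2 rose (median -0.43), and their sum was 824.4 to 841.2 FPKM in 231-BR and 1263 to 1294 FPKM in MDA-MB-231. VLDLR, SDF2L1 and HSPA5 fell most, the last of them a gene the study picked from these libraries, and the part of this list was not tested either.

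Inhibitor of apoptosis proteins were lower in 3 of 4 cases. BIRC2 (cIAP1), a ubiquitin ligase of death receptor complexes, read 63.2, 62.22 and 63.3 FPKM in 231-BR and 92.06, 94.61 and 96.57 FPKM in MDA-MB-231. The groups were far apart, with a log2 fold change of -0.58 (SE 0.0253, adjusted p = 1.4e-08). BIRC6, a very large inhibitor that also conjugates ubiquitin, fell from 8.12 ± 0.295 to 5.0 ± 0.0404 FPKM (log2 fold change -0.69, adjusted p = 4.6e-07). XIAP, the direct caspase inhibitor, fell from 5.02 ± 0.0985 to 4.21 ± 0.0436 FPKM (log2 fold change -0.25, adjusted p = 0.0014, and -0.48 with quantile normalization).

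BIRC5 (survivin), which also serves in mitosis, was higher in 231-BR, at 47.3 ± 0.649 against 42.8 ± 1.72 FPKM (log2 fold change 0.15, adjusted p = 0.002). With median-of-ratios scaling the difference was 0.06 and the call was lost (adjusted p = 0.10). Mitotic genes in general went the other way, with 15 of 21 lower, 3 higher and a median of -0.15, and their sum was 2164 to 2183 FPKM in 231-BR and 2494 to 2521 FPKM in MDA-MB-231. UBE2C, NUSAP1 and FOXM1 fell most and CDC20, CDCA8 and CCNA2 rose. The summed inhibitors came to 119.4 ± 0.211 and 150.3 ± 3.41 FPKM, of which BIRC5 made up 39.6% and 28.4%.

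Caspases were the role group with the highest median log2 fold change, 0.96, with 5 of 7 higher and 2 lower. CASP4, an inflammatory caspase that senses bacterial lipopolysaccharide in the cytosol, read 148.54, 146.54 and 147.75 FPKM in 231-BR and 64.55, 62.19 and 64.66 FPKM in MDA-MB-231. All 231-BR libraries were far above all MDA-MB-231 libraries, at a log2 fold change of 1.21 (SE 0.024, adjusted p = 6.8e-11). CASP1, the caspase of inflammasomes that matures interleukin-1β, read 0.95, 1.18 and 0.95 FPKM in 231-BR and 0.25, 0.12 and 0.15 FPKM in MDA-MB-231. Its libraries did not overlap, at a low level in both lines, and the log2 fold change was 2.07 (SE 0.188, adjusted p = 3.4e-06). CASP1 shares sequence with its near copy CARD16, a gene chosen here after its values were seen, which stood at 3.49 ± 0.180 and 0.360 ± 0.104 FPKM, so how reads were split between them is uncertain.

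The promoter of CASP4 (RefSeq, GRCh38.p14, chr11:104968575-104968824, minus strand) is shown as that of the most abundant gene past a log2 fold change of 1, with GGGCGG, on the opposite strand, in capitals. GC content was 38%.

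CASP4: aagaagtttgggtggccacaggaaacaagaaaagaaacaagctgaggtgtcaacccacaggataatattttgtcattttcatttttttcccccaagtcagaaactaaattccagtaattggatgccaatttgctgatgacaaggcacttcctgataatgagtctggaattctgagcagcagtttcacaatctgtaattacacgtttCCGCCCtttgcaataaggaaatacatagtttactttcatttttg

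Interferon response genes are given beside these caspases because interferons are known inducers of CASP1 and CASP4. Of 24 tested, 14 rose and 5 fell, with a median of 0.33, and their sum was 241.8 to 246.9 FPKM in 231-BR and 199.7 to 203.6 FPKM in MDA-MB-231. OAS1 (2.63 against 0.1 FPKM), IFI44L and MX1 rose most, whereas IFIT1 (3.20 against 5.61 FPKM), ISG15 and IRF1 fell. The part of this list was not tested.

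Among the initiator caspases, CASP9, the enzyme of the apoptosome, read 5.06, 5.11 and 5.27 FPKM in 231-BR and 2.57, 2.84 and 2.42 FPKM in MDA-MB-231. All 231-BR libraries were above all MDA-MB-231 libraries, and the log2 fold change of 0.96 (SE 0.0704, adjusted p = 6.6e-07) lay just under 1 and became 1.02 without MDA-MB-231 replicate 2. CASP10, a death receptor initiator, read 1.25, 1.48 and 1.39 FPKM in 231-BR and 0.59, 0.54 and 0.52 FPKM in MDA-MB-231. Its libraries did not overlap, and the log2 fold change was 1.18 (SE 0.11, 95% confidence interval 0.93 to 1.43, adjusted p = 4e-06) and 0.73 with quantile normalization.

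CASP8, the main death receptor initiator, read 14.86, 14.63 and 14.74 FPKM in 231-BR and 16.65, 17.31 and 16.21 FPKM in MDA-MB-231, lower in 231-BR without overlap (log2 fold change -0.18, adjusted p = 0.0011). CASP8 stood at 10.8 times CASP10 in 231-BR and at 30.5 times CASP10 in MDA-MB-231, and CASP8 remained by far the more abundant in both. CASP6, an executioner, rose from 6.24 to 8.24 FPKM (log2 fold change 0.40, adjusted p = 2e-04, and 0.24 with quantile normalization), and CASP2 fell from 16.6 to 15.1 FPKM (log2 fold change -0.14, adjusted p = 0.0045, and -0.22 with either other scaling). The initiators CASP2, CASP8, CASP9 and CASP10 summed to 36.4 FPKM in 231-BR and 36.5 FPKM in MDA-MB-231, with overlapping libraries. All caspases together summed to 193.2 ± 0.438 and 106.7 ± 1.09 FPKM, of which CASP4 made up 76.4% and 59.8%.

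**Figure D3:**
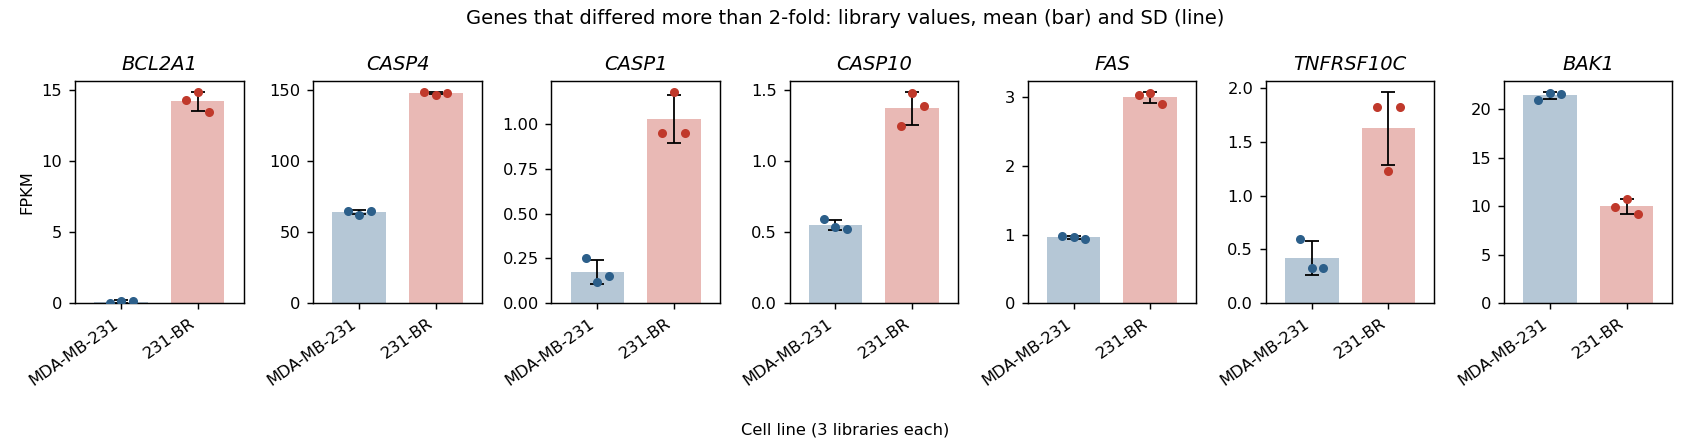
FPKM in each library, with mean and SD, of the genes called with an absolute log2 fold change over 1. In every panel the libraries of the lines are apart, and BAK1 is the panel in which 231-BR is the lower.

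Downstream of the mitochondria, APAF1, the scaffold of the apoptosome, rose from 4.66 ± 0.329 to 6.24 ± 0.226 FPKM (log2 fold change 0.41, adjusted p = 0.00017, and 0.20 with quantile normalization). DIABLO (SMAC) rose from 29.1 ± 1.17 to 39.0 ± 0.665 FPKM (log2 fold change 0.42, adjusted p = 1.4e-06). CYCS, which encodes cytochrome c and also serves respiration, read 43.37, 42.64 and 42.52 FPKM in 231-BR and 52.11, 50.29 and 50.59 FPKM in MDA-MB-231. It was lower in all 231-BR libraries, with a log2 fold change of -0.25 (adjusted p = 8.9e-06), and its many processed pseudogenes make its count uncertain. APAF1 and CASP9, which bind each other, were thus both higher in 231-BR, and CYCS was lower.

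Among the death receptors FAS rose, whereas both TRAIL death receptors fell. FAS, the receptor of FAS ligand, read 3.04, 3.06 and 2.91 FPKM in 231-BR and 0.98, 0.96 and 0.94 FPKM in MDA-MB-231. Its libraries were far apart with little spread, at a log2 fold change of 1.55 (SE 0.0772, adjusted p = 3.8e-08). FAS overlaps ACTA2 on the opposite strand, a gene chosen here after its values were seen, which stood at 2.35 and 0.350 FPKM. Whether strand was used in counting is not given in the sources used here, so reads in the overlap cannot be told apart.

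TNFRSF10B (DR5) read 33.4, 35.03 and 33.55 FPKM in 231-BR and 45.83, 46.36 and 45.4 FPKM in MDA-MB-231, without overlap (log2 fold change -0.43, SE 0.0284, adjusted p = 2.9e-07). TNFRSF10A (DR4) read 8.97, 9.11 and 8.48 FPKM in 231-BR and 10.56, 10.11 and 10.5 FPKM in MDA-MB-231, also without overlap (log2 fold change -0.23, adjusted p = 0.00084, and -0.35 with quantile normalization). TNFRSF10B was 47.8 ± 0.883 times FAS in MDA-MB-231 and 11.3 ± 0.292 times FAS in 231-BR, so the TRAIL receptor stayed the more abundant of the pair in both lines.

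Decoy receptors bind TRAIL without passing on a full death signal. TNFRSF10C (DcR1) read 1.82, 1.23 and 1.82 FPKM in 231-BR and 0.6, 0.33 and 0.33 FPKM in MDA-MB-231. The 231-BR libraries were all higher, with the widest spread of the receptors (log2 fold change 1.75, SE 0.214, adjusted p = 3.2e-05). TNFRSF10D (DcR2) read 32.51, 31.48 and 31.91 FPKM in 231-BR and 30.39, 31.54 and 29.65 FPKM in MDA-MB-231. These groups overlapped, and the log2 fold change of 0.07 had a 95% confidence interval of -0.004 to 0.14 (adjusted p = 0.078). The decoys are close paralogs, so the split of reads between them is uncertain. Their sum was 33.6 ± 0.819 FPKM in 231-BR and 30.9 ± 0.946 FPKM in MDA-MB-231, and TRAIL death receptors over decoys came to 1.28 ± 0.0634 and 1.82 ± 0.0464, without overlap.

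The ligand TNFSF10 (TRAIL) was near 0 and was not tested, at 0.02 to 0.2 FPKM in 231-BR and 0.02 to 0.13 FPKM in MDA-MB-231, with overlap. FADD, the adaptor, read 31.6, 32.45 and 33.89 FPKM in 231-BR and 31.75, 29.96 and 32.11 FPKM in MDA-MB-231. The groups overlapped (log2 fold change 0.06, 95% confidence interval -0.02 to 0.15, adjusted p = 0.16). CFLAR (FLIP), which blocks caspase-8 at the receptor, fell from 14.97 ± 0.408 to 11.2 ± 0.335 FPKM (log2 fold change -0.42, adjusted p = 4.4e-06), and CASP8 over CFLAR was 1.32 ± 0.0315 in 231-BR and 1.12 ± 0.0626 in MDA-MB-231.

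**Figure D4:**
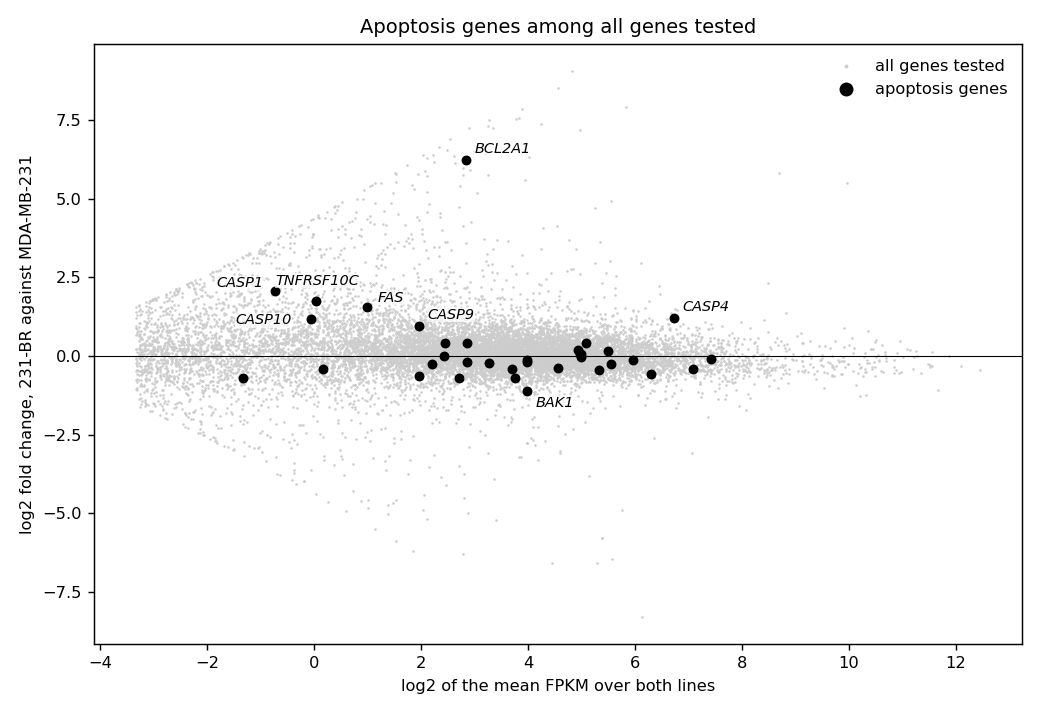
Log2 fold change against log2 of the mean FPKM for all 13465 genes tested (grey) and the apoptosis genes (black). BCL2A1 lies at the upper edge of the cloud, CASP4 is set apart at high level, and most other apoptosis genes fall inside the cloud.

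Some of the genes sit side by side. CFLAR, CASP10 and CASP8 follow each other on chromosome 2 with no protein-coding gene between them, yet CASP10 rose while CFLAR and CASP8 fell. TNFRSF10B, TNFRSF10C, TNFRSF10D and TNFRSF10A are consecutive protein-coding genes on chromosome 8, and with all 6 libraries only TNFRSF10C among them was called higher. CASP4 and CASP1 lie close together on chromosome 11 and both rose, and BIRC2, with 14 protein-coding genes between it and CASP4, fell.

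The 40 nearest expressed genes around each gene (mean of at least 1 FPKM, RefSeq order) are given for scale. Their median log2 fold change was 0.47 around BCL2A1, 0.48 around CASP4, 0.54 around CASP1 (its window shares genes with that of CASP4), -0.42 around CASP10, 0.23 around FAS, -0.14 around BAK1 and -0.02 around TNFRSF10C. It was also 0.48 around BIRC2, which fell. Of the 35 apoptosis genes tested, 80.0% had the sign of their neighbours' median, against 70.8% of all 11088 expressed genes. BIK, CASP1 and CASP10 are among the 35 although their means are below 1 FPKM. Genes that lie close together share neighbours, so the 35 are not separate comparisons. The genes next to BCL2A1 were ST20 at 0.295 on one side and ZFAND6 at 0.771 on the other. Those next to CASP4 were PDGFD at 1.83 and CARD16 at 2.99, both above CASP4 at 1.21. The part of the neighbourhood in these results was not tested.

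**Figure D5:**
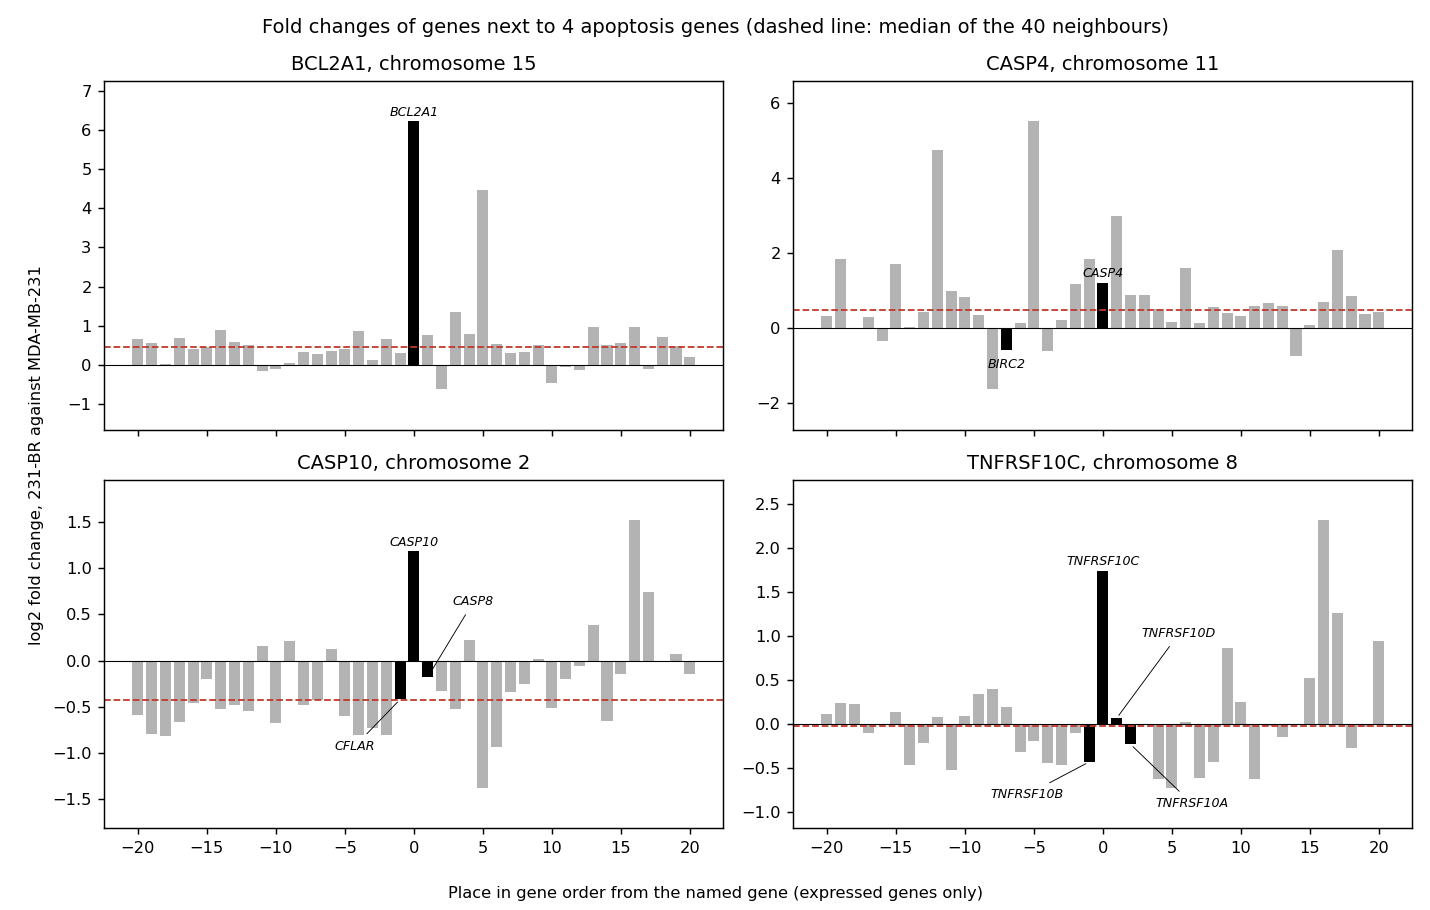
Log2 fold change of the 20 expressed genes on each side of BCL2A1, CASP4, CASP10 and TNFRSF10C in gene order, with the named apoptosis genes in black and the median of the 40 neighbours dashed. BCL2A1 and CASP4 lie above the medians of their neighbours (0.47 and 0.48). Of the 40 neighbours, 2 are over 1 around BCL2A1 and 10 around CASP4, some of them above CASP4 itself. CASP10 stands against lower neighbours (median -0.42).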

How the data were processed

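RNA from 3 libraries of each line was sequenced as paired 100-base reads after poly(A) selection. The authors deposited FPKM values per gene, and each of the 6 single-library tables equalled its column of the joint matrix. The submitters' processing notes name HISAT2 2.0.4, Bowtie2 2.2.5 and GRCh38.p12, and the paper's methods name read filtering with SOAPnuke. The program that computed FPKM is not given in the sources used here. In the matrix 25 symbols had been turned into dates.

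Genes with a mean of at least 0.1 FPKM (13465 of 17039) were analysed as log2(FPKM + 0.1) in limma 3.58.1 (R 4.3.3) with a mean-variance trend, no covariate and Benjamini-Hochberg adjustment. The pseudocount understates changes of low genes. The study's own count model needs counts and was not used. The fit was tested on simulated data with 200 changed genes, each changed by at least 1 on the log2 scale. Of these 199 were recovered, and 9 of 13324 unchanged genes were called. Smaller changes were not simulated, so the simulation does not bear on the small calls. Genes and lists were chosen with earlier results of these data known. Library values are given for called genes that reached 1 FPKM on average in either line and differed by more than 1 on the log2 scale, for the most abundant gene of each role and for genes set side by side, and of context lists at most the 3 largest changes each way (mean of at least 1 FPKM in either line). Values of BCL2 and BBC3 were added for their calls. Promoters are from RefSeq GRCh38.p14, whose gene order was matched for 16798 gene identifiers and from which no coordinates were taken for the expression values. Alternatives were 2 pseudocounts, 2 expression minimums, 2 scalings, no trend, a replicate block, a test against a minimum difference and leaving out each library. Some genes are not reported here.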

Additional observations from a re-analysis of the deposited data

How the results depend on the processing

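Over all 15 alternatives, 486 of the single-gene results kept direction and side of the threshold, 28 lost a call (20 of them in the test against a minimum difference), 3 gained one and 7 changed sign, with BCL2 and BCL2L1 under quantile normalization among both the changed calls and the changed signs. Of the called apoptosis genes, the number over a log2 fold change of 1 was 3 with a pseudocount of 1 (BCL2A1, CASP4 and FAS), 4 with a minimum mean of 1 FPKM, which leaves CASP1 and CASP10 untested, and 5 with quantile normalization, where CASP10 came to 0.73. Over all genes tested these numbers were 720 of 13465, 949 of 11124 and 1061 of 13465. The number under -1 was 2 with quantile normalization (BAK1 and BIK), and 947 over all genes. In the test against an absolute log2 difference of 0.5, 7 apoptosis genes were higher and 4 lower. Of all 13465 genes, 2315 were higher and 1120 lower in that test. Leaving out 1 library gave 12 to 13 higher, 18 to 20 lower, 6 to 7 over 1 and 1 under -1. BAD was called without MDA-MB-231 replicate 1 (-0.10, adjusted p = 0.017, limma) and TNFRSF10D without MDA-MB-231 replicate 2 (0.09, adjusted p = 0.036, limma). The sign changed for BCL2 with median-of-ratios scaling (-0.073), with quantile normalization (-0.20, adjusted p = 0.019, limma) and without single libraries (-0.036 to 0.08, with -0.036 without 231-BR replicate 1 and -0.018 without replicate 2), for BCL2L1 with quantile normalization (0.005), and for FADD (-0.021) and TNFRSF10D (-0.016) with median-of-ratios scaling; the cause was not tested. With the replicate number as a block, 12 genes were higher and 19 lower, and no call of an apoptosis gene changed. Deviations of same-numbered libraries correlated at 0.09, -0.04 and -0.11, and those of different-numbered libraries at -0.154 to 0.183. No pairing by number was seen, but so few values cannot exclude it. Unknown depth limits what can be said of genes near 0.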

Other observations

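Other genes of the cell death pathway, 66 tested of 77 listed, went both ways: 26 were higher and 30 lower in 231-BR (limma), with a median log2 fold change of -0.07. Of these, 3 were over 1 and 3 under -1. CRADD, an adaptor that joins caspase-2 to PIDD1, rose from 3.08 ± 0.131 to 22.9 ± 0.477 FPKM (n = 3), a log2 fold change of 2.85. TNFRSF11B (osteoprotegerin), a soluble receptor that also binds TRAIL, rose from 0.693 to 2.48 FPKM (1.70), and DAP from 78.8 to 158 FPKM (1.01). TRAF1, an adaptor of tumour necrosis factor receptors, fell from 1.98 to 0.257 FPKM (-2.56), BIRC3 (cIAP2), the neighbour of BIRC2 on chromosome 11, fell from 12.3 to 3.89 FPKM (-1.63), and PYCARD, the adaptor of inflammasomes that recruits caspase-1, fell from 2.19 to 0.893 FPKM (-1.21). TRAF1 and BIRC3 are also in the NF-kB list. FASLG was at most 0.04 FPKM in any library and was not tested.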
